A study of Mus musculus with 2 samples.

Results

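Transcripts of 10 subunits of the Polycomb repressive complexes were followed in the hindbrain of the mouse embryo: Ezh1, Ezh2, Eed, Suz12 and Jarid2 of Polycomb repressive complex 2 (PRC2), and Bmi1, Cbx2, Cbx8, Phc1 and Phc2 of Polycomb repressive complex 1 (PRC1). They were chosen by symbol, as subunits of the 2 complexes, and are 10 of the 43346 Ensembl genes in the tables. The series holds 1 group of 2 libraries of total RNA from B6NCrl embryos at embryonic day 11.5, with no treatment or genotype contrast. Pool 1 (replicate 1) combined the hindbrains of 109 embryos and pool 2 (replicate 2) those of 88, both of mixed sex, so neither library describes 1 animal. The input per library was 10 ng of RNA over 200 nt in length, to which synthetic ERCC RNAs were added as spike-ins. With 1 library per pool, no difference between the pools has a p-value.

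Polycomb proteins keep developmental genes silent, among them the Hox clusters that pattern the hindbrain. PRC2 methylates lysine 27 of histone H3 through Ezh1 or Ezh2, and needs Eed and Suz12 for this activity. Canonical PRC1 binds that mark through a Cbx chromodomain protein, compacts chromatin through its Phc subunits, and carries a Ring ubiquitin ligase paired with a Pcgf protein such as Bmi1. In neural progenitors Polycomb is known for its part in the timing of differentiation and in self-renewal, in which Bmi1 represses the Cdkn2a locus.

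Levels are given as TPM, a length-adjusted share of the library that can be compared between genes. The libraries held 45340440 (pool 1) and 41261544 (pool 2) expected counts, and spike-ins took 16.2% and 22.2% of all TPM. A pool ratio is therefore the log2 ratio of TPM + 1, pool 2 over pool 1, minus its median of −0.11 over the 14942 genes whose mean TPM reached 1, and a positive value means higher in pool 2. Hindbrain identity was read from Hoxa2 at 49.3 and 48.1 TPM and 3 other detected genes of a 5-gene list. The exception was Egr2, of rhombomeres 3 and 5, at 0.99 and 0.77 TPM, each under its own deposited lower bound of 1.06 and 0.823 TPM. Of 4 forebrain genes 0 reached 1 TPM in both libraries, but Emx2 was near that limit, at 1.04 TPM in pool 1 and 0.73 TPM in pool 2. Summed levels in pool 1 and pool 2 were 2474 and 2233 TPM for 8 progenitor markers, 1994 and 1785 TPM for 8 neuron markers, and 1518 and 1276 TPM for 8 cell cycle markers. Markers of other tissues were also present in full lists: 71.81 and 59.96 TPM for 5 erythroid, 74.7 and 64.4 TPM for 5 endothelial, 56.40 and 55.04 TPM for 5 macrophage, and 474 and 439 TPM for 5 mesenchyme markers. In bulk RNA, fewer cells of a type and less RNA per cell cannot be told apart, and which cells made the Polycomb transcripts was not tested.

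All 10 subunits were detected, meaning that TPM reached 1 in each library, against 33.0% of all Ensembl genes. Ezh2 was the most abundant at 95.9 ± 0.0566 TPM (SD, n = 2) and stood in the top 10.2% of the expressed genes. Cbx8 was the lowest at 6.35 ± 0.410 TPM, in the top 67.5%. These SDs are of TPM not adjusted for the median gene. Relative to that gene, Ezh2 was 1.08-fold higher in pool 2, a pool ratio of 0.11. The median over the 10 was 35.0 TPM in pool 1 and 29.3 TPM in pool 2, and the median expressed gene had a mean of 14.2 TPM. Expected counts behind these values ran from 350 for Cbx8 in pool 2 to 6483 for Ezh2 in pool 1.

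Ranked by mean TPM the order was Ezh2, Phc2, Eed, Cbx2, Bmi1, Jarid2, Phc1, Suz12, Ezh1 and Cbx8. Phc2 and Eed changed places between the pools, as did Bmi1 and Jarid2. Phc1 was above Suz12 in both pools, but by a mean of 0.18 ± 0.24 in log2(TPM + 1), which is within the spread. The other 6 neighbouring pairs kept their order in both pools with a mean difference beyond its SD. The closest of these were Eed over Cbx2, by 0.13 ± 0.13, and Cbx2 over Bmi1, by 0.13 ± 0.03. Between the complexes, the median log2 level of the 5 PRC2 subunits minus that of the 5 PRC1 subunits was −0.15 in pool 1 and 0.15 in pool 2, so neither complex stood above the other in both pools.

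**Figure D1:**
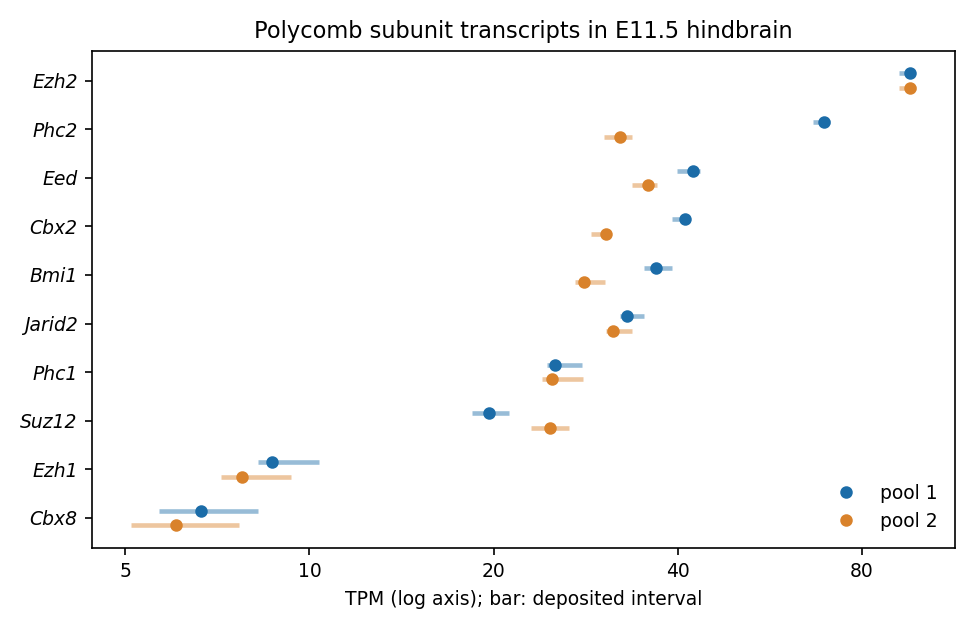
TPM (log axis) of the 10 Polycomb subunits in each of the 2 pools of E11.5 hindbrain, with the deposited interval of each value as a bar. Ezh2 is the highest in both pools, Ezh1 and Cbx8 are the lowest, and Phc2 shows the widest gap between the pools.

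Of the catalytic subunits, Ezh2 was the prevailing transcript. Ezh2 (ENSMUSG00000029687; GRCm38 chr6:47530139-47595341, minus strand), the methyltransferase typical of dividing cells, had 95.83 TPM in pool 1 and 95.91 TPM in pool 2. Ezh1 (ENSMUSG00000006920; chr11:101191115-101226463, minus strand), the paralog that is widespread in non-dividing tissue, had 8.69 and 7.76 TPM. The values of the 2 genes did not overlap. Ezh2 exceeded Ezh1 11.0-fold in pool 1 and 12.4-fold in pool 2, a mean log2(TPM + 1) difference of 3.39 ± 0.10 (SD, n = 2). Ezh2 thus made up 91.7% and 92.5% of the summed TPM of the pair.

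The start regions of the 2 methyltransferase genes are shown because their transcripts differed this far. RefSeq windows (GRCm38.p6) of 250 bases before to 50 bases after a gene start matched 9 of the 10 subunits, with 12 windows; Cbx2 had none. Capitals mark matches on either strand to TTTNGCGC (a form of the E2F site), CCAAT (the CCAAT box) and GGGCGG (the GC box).
Ezh2, chr6:47594981-47595280, minus strand: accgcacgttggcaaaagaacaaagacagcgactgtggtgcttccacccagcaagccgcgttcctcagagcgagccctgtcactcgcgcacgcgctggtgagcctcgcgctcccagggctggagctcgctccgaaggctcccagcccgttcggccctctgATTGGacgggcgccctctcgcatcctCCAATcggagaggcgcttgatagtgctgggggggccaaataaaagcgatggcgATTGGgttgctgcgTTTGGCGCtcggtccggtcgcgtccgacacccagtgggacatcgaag
Ezh1, chr11:101226414-101226713, minus strand: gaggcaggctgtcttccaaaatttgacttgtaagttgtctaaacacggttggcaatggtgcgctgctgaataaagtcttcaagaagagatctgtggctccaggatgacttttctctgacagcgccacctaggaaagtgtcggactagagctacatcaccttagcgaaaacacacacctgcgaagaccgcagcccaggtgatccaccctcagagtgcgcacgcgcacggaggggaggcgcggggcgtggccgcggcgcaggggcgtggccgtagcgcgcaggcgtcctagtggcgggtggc
The Ezh2 window held 31 CpG dinucleotides, 1 TTTNGCGC match and 3 CCAAT matches, and transcripts starting within 100 bases of its start base summed to 66.2 and 63.8 TPM. The Ezh1 window held 23 CpG and none of the 3 motifs, with 7.19 and 5.79 TPM from its start. Among 32851 windows of the same length, 1.38% held TTTNGCGC, 37.4% CCAAT and 35.7% GGGCGG, and the median window had 7 CpG. Of the 12 Polycomb windows, the Ezh2 window was the one with a TTTNGCGC match. These matches describe letters and not bound sites.

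The partners that Ezh2 needs were less abundant than it. Eed (ENSMUSG00000030619; chr7:89954654-89980983, minus strand), the subunit that binds methylated lysine 27, had 42.35 TPM in pool 1 and 35.79 TPM in pool 2. Suz12 (ENSMUSG00000017548; chr11:79993106-80034123, plus strand), the scaffold subunit, had 19.64 and 24.74 TPM. Eed was lower in pool 2 and Suz12 was higher. Ezh2 exceeded Eed by 1.28 ± 0.17 and Suz12 by 2.07 ± 0.22 in log2(TPM + 1), or 2.26-fold and 2.68-fold for Eed and 4.88-fold and 3.88-fold for Suz12. Eed exceeded Suz12 by 0.79 ± 0.39 in log2(TPM + 1), in both pools. Transcript levels do not give protein levels or the make-up of the complex.

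Jarid2 (ENSMUSG00000038518; chr13:44729474-44921643, plus strand), a DNA-binding accessory subunit of one PRC2 form, had 33.06 and 31.38 TPM, nearly equal in the 2 pools. The remaining core subunits Rbbp4 and Rbbp7, histone-binding proteins shared with other chromatin complexes, were far above the Polycomb-specific genes, with 376.6 and 348.3 TPM for Rbbp4 and 248.5 and 215.7 TPM for Rbbp7. Accessory subunits of the other PRC2 forms covered a wide range. Mtf2, a Polycomb-like protein, had 103.6 and 92.0 TPM, whereas its paralogs Phf1, at 3.20 and 3.54 TPM, and Phf19, at 0.75 and 0.97 TPM, were low in both pools. Epop, which like the Polycomb-like proteins belongs to the PRC2.1 form, had 6.88 and 3.90 TPM. Aebp2, which belongs with Jarid2 to the PRC2.2 form, had 10.65 and 13.69 TPM. Lcor, a gene listed here with the accessory subunits, had 20.97 and 22.46 TPM over all of its transcripts. Relative to the median gene, Epop, at −0.58, and Mtf2, at −0.06, were lower in pool 2, and Aebp2, Phf1 and Lcor were higher. None of the 5 detected was over 1.5-fold apart, but Epop was just inside that limit at 1.49-fold on the centred TPM + 1 scale, and its TPM was 1.76-fold higher in pool 1.

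The chromodomain subunits of PRC1 were led by Cbx2. Cbx2 (ENSMUSG00000025577; chr11:119022962-119031270, plus strand), a reader that also compacts nucleosomes, had 41.07 TPM in pool 1 and 30.52 TPM in pool 2. Cbx8 (ENSMUSG00000025578; chr11:119036305-119040969, minus strand) had 6.64 and 6.06 TPM. Cbx2 was higher in both pools, 6.19-fold and 5.04-fold, with a mean log2(TPM + 1) difference of 2.31 ± 0.21 (SD, n = 2). The 2 genes lie 5034 bases apart on chromosome 11 on opposite strands, so neighbouring genes differed in level by this much. Of the paralogs on chromosome 15, Cbx6 had 11.61 and 7.85 TPM, and Cbx7, a subunit known from embryonic stem cells, had 1.66 and 1.14 TPM. The Cbx7 value of pool 1 lies under its own deposited lower bound of 1.74 TPM, so it and the Cbx7 shares are uncertain.

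Cbx2 held an almost constant share of the summed TPM of Cbx2, Cbx6, Cbx7 and Cbx8, 67.3% in pool 1 and 67.0% in pool 2, although that sum was 60.98 TPM in pool 1 and 45.57 TPM in pool 2. Cbx6 took 19.0% and 17.2%, Cbx8 10.9% and 13.3%, and Cbx7 2.722% and 2.502%. Each of these 4 genes thus kept its rank among them in both pools.

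**Figure D2:**
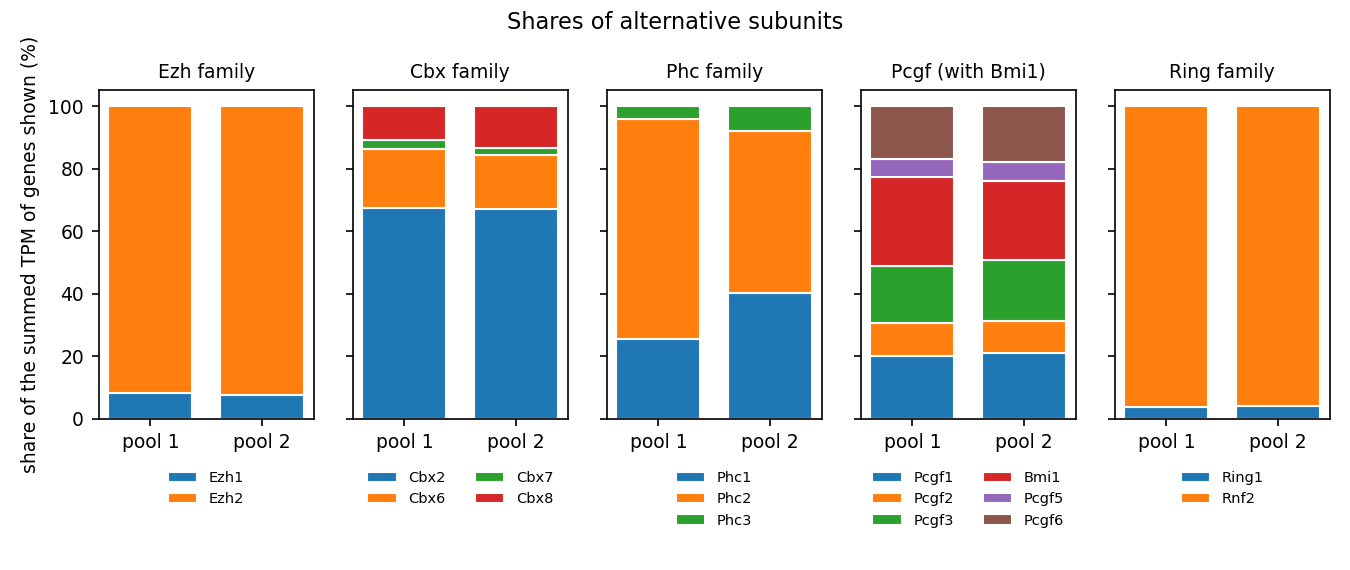
Share (%) of the summed TPM of the paralogs shown taken by each gene shown, pool 1 beside pool 2, for genes of the Ezh, Cbx, Phc, Pcgf and Ring families. The Ezh, Cbx and Ring shares are alike in the 2 pools, while Phc2 goes from 70.4% to 51.9% of the Phc family and Phc1 from 25.6% to 40.2%.

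Bmi1 (ENSMUSG00000026739; chr2:18677018-18686629, plus strand), also called Pcgf4, is the Pcgf protein of canonical PRC1 that is known for neural stem cell self-renewal. It had 36.91 TPM in pool 1 and 28.13 TPM in pool 2, lower in pool 2. Its closest paralog Pcgf2, also of canonical PRC1, had 14.0 and 11.4 TPM, so that Bmi1 was 2.64-fold and 2.47-fold higher, with a log2(TPM + 1) difference of 1.29 ± 0.07. Pcgf1, Pcgf3 and Pcgf6, which belong to variant PRC1 forms without Cbx proteins, lay between 19.9 and 26.0 TPM in both pools. Pcgf5 was the lowest, at 7.55 and 6.96 TPM. Bmi1 was the highest of the 6 genes in both pools, with 28.3% and 25.1% of their summed TPM.

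Transcripts for the ubiquitin ligase subunit of PRC1 came largely from Rnf2 (RING1B), at 120.4 and 102.3 TPM. Few came from Ring1 (RING1A), at 4.42 and 4.29 TPM, and protein levels were not measured. Rnf2 exceeded Ring1 27.2-fold and 23.8-fold. The Rnf2 value was above that of each of the 5 PRC1 subunits described here, in both pools. Transcripts of Cdkn2a, named above as a locus that Bmi1 represses, were not seen, and whether Bmi1 has a part in this was not tested. Cdkn2a had no read in either library, which allows up to 3 counts per library, and its deposited upper bounds were 0.205 and 0.213 TPM. Cdkn2b, next to it, had 0.81 and 0.93 TPM from 31 and 34 counts.

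The polyhomeotic subunits join PRC1 complexes to each other through their SAM domains, and one of them, Phc2, had the largest pool ratio of the 10 subunits in size. Phc2 (ENSMUSG00000028796; chr4:128654702-128752881, plus strand) had 69.32 TPM in pool 1 and 32.13 TPM in pool 2, from 4847 and 2132 expected counts. Phc1 (ENSMUSG00000040669; chr6:122317731-122340561, minus strand) had 25.19 and 24.89 TPM, and Phc3 had 3.94 and 4.88 TPM. Phc2 was thus the highest of the 3 in both pools, 2.75-fold over Phc1 in pool 1 but 1.29-fold in pool 2. The log2(TPM + 1) difference of Phc1 and Phc2 was −1.42 in pool 1 and −0.36 in pool 2, a mean of −0.89 ± 0.76 (SD, n = 2). The size of that difference therefore rests on which pool is taken, and its direction does not. Scmh1, a further SAM-domain protein of canonical PRC1, had 35.7 and 36.5 TPM, and its relative Scml2 had 3.28 and 2.92 TPM.

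Phc2 was the 1 subunit of 10 that was over 1.5-fold apart between the pools, against 5.98% of the 14942 genes in either direction. Of those genes 1.63% were over 1.5-fold lower in pool 2, as Phc2 was, and 4.35% were over 1.5-fold higher, as no subunit was. Its TPM was 2.16-fold higher in pool 1, and 1.97-fold on the centred scale of TPM + 1, a pool ratio of −0.98. Read depth differs among these genes, so the same share was taken over the 10999 genes with a mean expected count of at least 300, a limit chosen after the values were seen. It was 2.31% in either direction, 0.627% for lower and 1.68% for higher in pool 2. Among 7481 protein-coding genes with at least 1000 mean expected counts, Phc2 had the 7th lowest pool ratio, a rank also taken after its value was seen. Without a second library per pool, the difference cannot be set against the spread within a pool.

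The other 9 subunits were within 1.5-fold. Their pool ratios ran from −0.31 for Cbx2 and −0.27 for Bmi1 to 0.43 for Suz12, where the SD over the genes of at least 300 mean expected counts was 0.23. In between lay Eed at −0.13, Ezh1 at −0.04, Cbx8 at −0.01, Jarid2 at 0.04, Phc1 at 0.09 and Ezh2 at 0.11. Of the 10 subunits 6 were below the median gene and 4 above, where 50.0% of all genes are below. The median ratio was −0.02 over all 10, 0.04 over the 5 PRC2 subunits and −0.27 over the 5 PRC1 subunits. Deposited TPM intervals of the pools were apart for 5 subunits (Eed, Suz12, Bmi1, Cbx2 and Phc2), and for 40.4% of genes, so that share is close to the background.

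**Figure D3:**
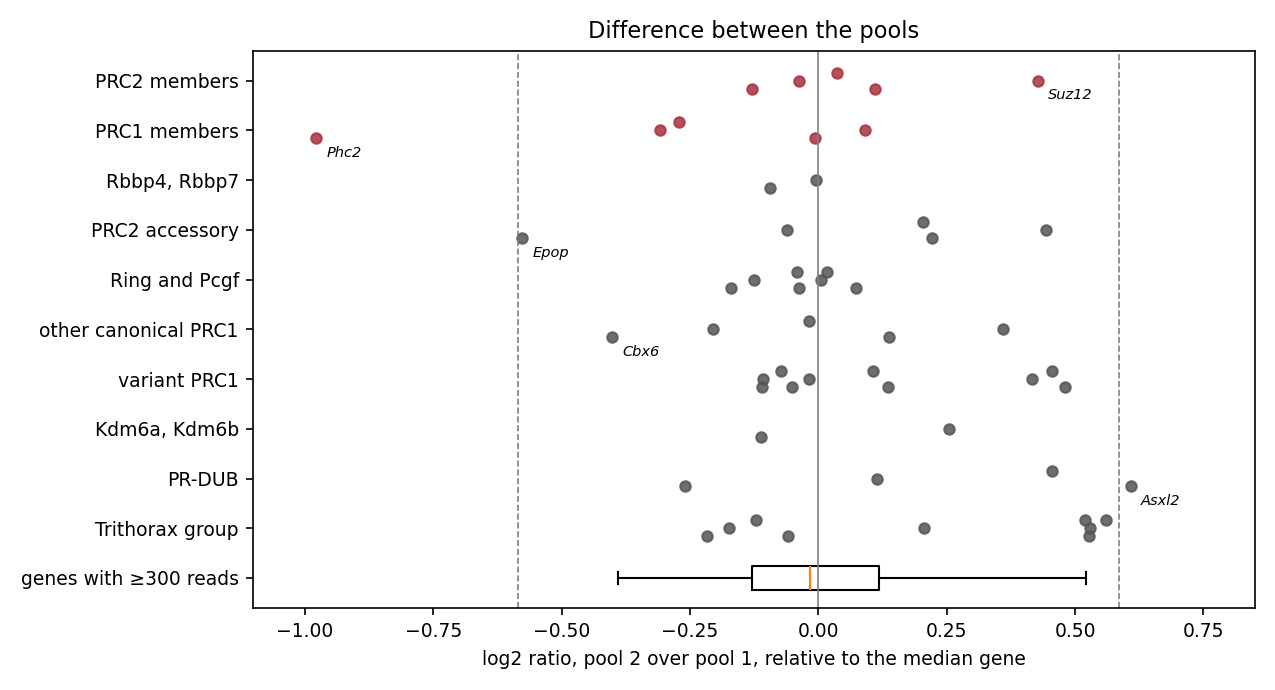
Pool ratio (log2, pool 2 over pool 1, relative to the median gene) of each detected Polycomb subunit, in red, and of its companion genes by list, in grey; dashed lines mark 1.5-fold. The box gives the quartiles of the 10999 genes with a mean expected count of at least 300, with whiskers over the central 95% of them, from −0.39 to 0.52. Phc2 lies at −0.98, outside both.

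Most of the lower Phc2 TPM of pool 2 lay in transcripts from one start region. Of 12 annotated Phc2 transcripts, the protein-coding Phc2-202 (7 exons, start at base 128727585) had 56.16 TPM in pool 1 and 24.79 TPM in pool 2, with deposited intervals of 52.6 to 57.2 and 22.3 to 26.1 TPM. It made up 81.0% and 77.2% of the gene. Phc2-209, annotated for nonsense-mediated decay, starts nearby and had 6.88 and 3.24 TPM. The 7 transcripts that start after the Phc2-202 start or at most 100 bases before it, Phc2-209 among them, summed to 65.18 and 28.63 TPM, a 2.28-fold difference. The 5 that start further upstream summed to 4.16 and 3.50 TPM, a 1.19-fold difference. Phc2-202 has 969 coding bases, against 2550 in the long form Phc2-203, which had 2.28 and 1.29 TPM. Phc2-203 starts upstream and was thus also listed lower in pool 2, with overlapping deposited intervals of 1.30 to 2.60 and 0.382 to 1.66 TPM. Whether transcripts from the upstream starts share the difference is therefore not resolved.

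Windows at 2 of the Phc2 starts are shown because the transcripts from them differed in level, with the same motifs in capitals.
Phc2, start of Phc2-202, chr4:128727321-128727620, plus strand: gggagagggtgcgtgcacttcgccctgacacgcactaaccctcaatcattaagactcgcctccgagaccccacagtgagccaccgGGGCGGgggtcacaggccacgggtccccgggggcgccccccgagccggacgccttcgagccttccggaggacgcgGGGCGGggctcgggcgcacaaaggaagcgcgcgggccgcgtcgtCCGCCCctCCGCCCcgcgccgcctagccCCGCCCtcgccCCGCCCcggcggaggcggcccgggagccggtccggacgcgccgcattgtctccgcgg
Phc2, start near Phc2-203, chr4:128688488-128688787, plus strand: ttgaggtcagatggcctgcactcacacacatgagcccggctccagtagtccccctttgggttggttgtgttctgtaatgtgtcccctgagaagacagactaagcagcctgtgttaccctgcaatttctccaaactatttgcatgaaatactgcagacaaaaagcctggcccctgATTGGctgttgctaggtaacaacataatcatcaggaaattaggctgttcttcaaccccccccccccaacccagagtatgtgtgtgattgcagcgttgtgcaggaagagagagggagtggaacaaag
The first window is 77.0% G or C with 45 CpG and 6 GC boxes, and transcripts within 100 bases of its start base summed to 63.04 and 28.03 TPM. The second has 2 CpG and 1 CCAAT match, and its transcripts summed to 2.42 and 1.56 TPM. The window at the most upstream start had 19 CpG, and its transcripts summed to 1.38 and 1.67 TPM.

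Some values that could move with the Phc2 difference were measured. Detected neighbouring genes on chromosome 4 did not share it: pool ratios were 0.02 for Zfp362, 0.01 for Trim62, 0.01 for Zscan20 and −0.19 for Azin2. A3galt2, the nearest of the neighbours examined, had 0.32 and 0.35 TPM, too low for its ratio to be read. The top Phc2 transcript is over 60% G or C, and the 473 genes in that class had a median pool ratio of −0.01. Its length class, 1500 to 2500 bases, had a median of −0.03, and both classes were chosen after the values were seen. Over the 8 progenitor markers the median was 0.01, with 4 above and 4 below the median gene. The lowest ratio was that of Hes5, a Notch target of progenitors, over 1.5-fold lower in pool 2, at 202 and 109 TPM. Sox2 had a ratio of −0.57, from 25.2 and 15.4 TPM, and the highest was Nes at 0.25, from 52.2 and 57.6 TPM. The 8 cell cycle markers had a median of −0.14, with 7 of them below the median gene, and the 8 neuron markers a median of −0.01. Whether differences in cell make-up have a part in the Phc2 value was not tested.

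**Figure D4:**
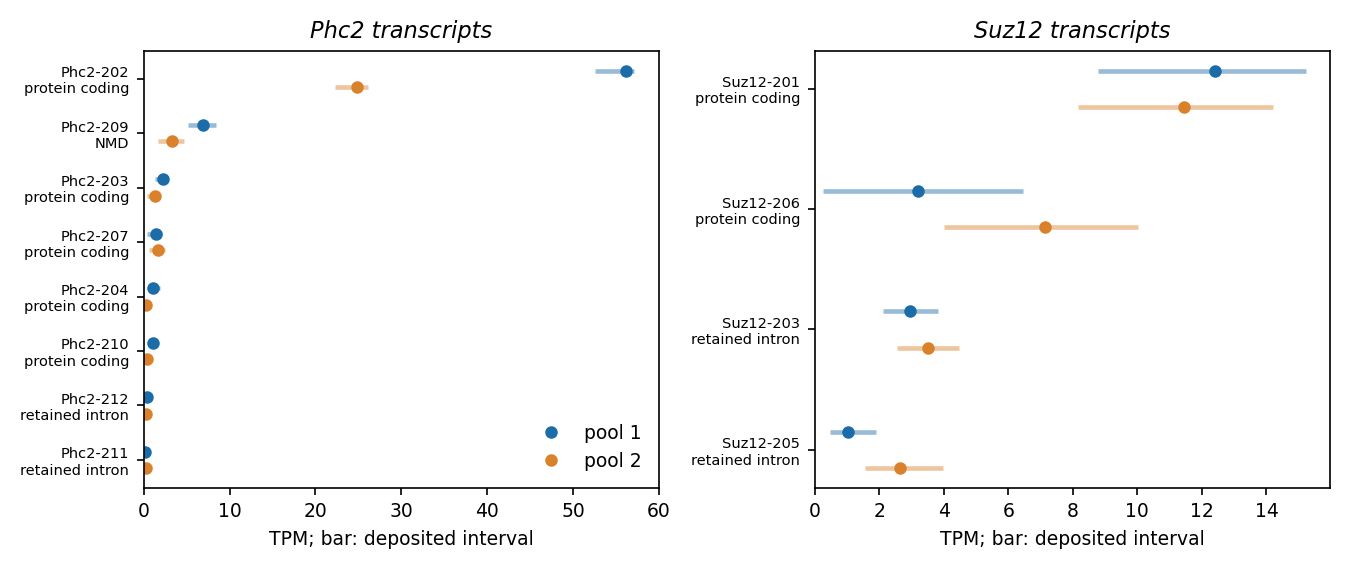
TPM of the most abundant annotated transcripts of Phc2 (left) and Suz12 (right) in pool 1 and pool 2, with deposited intervals as bars. Phc2-202 has separate intervals in the 2 pools, whereas the intervals of Suz12-201 and Suz12-206 overlap between the pools.

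Alternative exons divided 3 subunits into protein-coding forms that differ by a multiple of 3 coding bases. Their sequences (GRCm38, coding strand, in lower case) are shown because the forms differ by these exons in their coding sequence.
Suz12, exon 4 of 16 in Suz12-201, chr11:79999057-79999125, plus strand: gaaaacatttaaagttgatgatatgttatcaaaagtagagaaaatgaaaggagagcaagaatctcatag
Phc1, exon 6 of 15 in Phc1-215, chr6:122332522-122332677, minus strand: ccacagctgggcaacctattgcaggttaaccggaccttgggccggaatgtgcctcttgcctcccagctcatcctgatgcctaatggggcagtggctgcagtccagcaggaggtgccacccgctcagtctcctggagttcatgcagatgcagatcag
Ezh2, exon 14 of 20 in Ezh2-201, chr6:47541845-47541970, minus strand: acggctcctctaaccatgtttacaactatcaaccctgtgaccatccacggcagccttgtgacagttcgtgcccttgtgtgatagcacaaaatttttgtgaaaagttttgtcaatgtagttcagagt
They span 69, 156 and 126 bases, or 23, 52 and 42 codons.

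For Suz12, the form without its exon, Suz12-206, had 3.21 and 7.15 TPM, and the form with it, Suz12-201, had 12.42 and 11.43 TPM. The form without the exon made up 20.5% and 38.5% of the pair. The deposited intervals of Suz12-206, 0.270 to 6.45 TPM in pool 1 and 4.02 to 10.0 TPM in pool 2, overlap, so this shift is not resolved. The 2 retained-intron transcripts Suz12-203, at 2.96 and 3.51 TPM, and Suz12-205, at 1.05 and 2.65 TPM, were also listed higher in pool 2, on short annotated lengths with 15.8 to 54.8 expected counts each. For Phc1, transcripts with the exon (Phc1-215 and Phc1-201) made up 63.0% and 63.3% of their summed TPM with Phc1-202. The deposited intervals of Phc1-201 were wide, 0.204 to 6.46 TPM in pool 1 and 0.448 to 8.42 TPM in pool 2, so this share is uncertain. For Ezh2, Ezh2-202 lacks the exon and made up 22.3% and 20.4% of its sum with Ezh2-201 and Ezh2-204. It also differs from them in its start and end, so this share does not measure use of the exon alone.

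One transcript carried most of the gene in several subunits. Its share, the deposited isoform percent, was 98.4% and 98.7% for Cbx2-201, 97.2% and 99.3% for Eed-201, 86.8% and 85.6% for Jarid2-208, and 74.5% and 81.7% for Bmi1-201. Bmi1-202, with 21.7% and 17.1%, has the same 972 coding bases as Bmi1-201 and differs in its start and end. Ezh2-201 had 61.2% and 57.3%, and Ezh1-203 had 65.6% and 52.1%, with Ezh1-201 at 15.7% and 22.5%. The Ezh1-203 value of pool 2, 4.04 TPM, lies above its own deposited upper bound of 3.87 TPM, so its split is uncertain. Phc1 was divided among Phc1-215 (37.3% and 28.8%), Phc1-202 (31.9% and 29.6%) and Phc1-201 (16.8% and 22.3%), and it was the 1 subunit whose leading transcript differed between the pools. That change is not resolved, since in pool 2 the deposited intervals of Phc1-202, 4.69 to 8.92 TPM, and Phc1-215, 3.72 to 10.8 TPM, overlap.

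Cbx8 stood apart in its transcript classes. The processed transcript Cbx8-202, which has no annotated coding sequence, was listed at 52.4% and 49.4%, and the protein-coding Cbx8-201 at 47.6% and 48.6%. Because Cbx8-202 is short, 789 bases, its share of TPM rests on 70.6 and 58.4 expected counts, against 323 and 290 for Cbx8-201. Protein-coding transcripts held 47.6% and 48.7% of Cbx8 TPM, 81.3% and 74.7% for Ezh1, 79.6% and 75.1% for Suz12, and at least 84.7% in both pools for the other 7 subunits. With coding transcripts alone, Cbx2 exceeded Cbx8 by 3.15 in place of 2.31 in log2(TPM + 1).

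**Figure D5:**
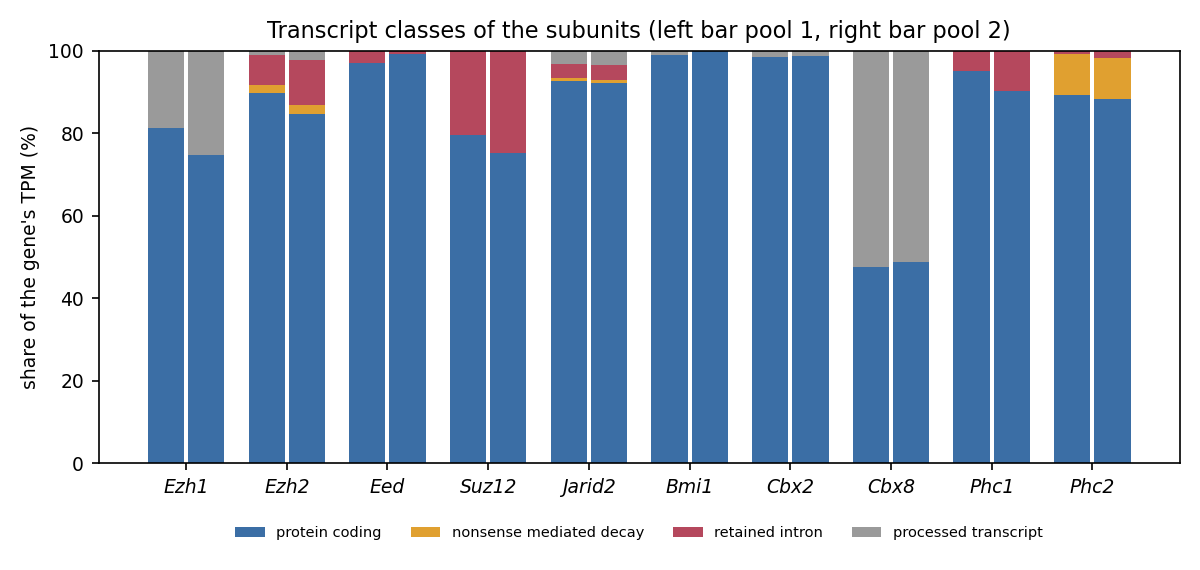
Share (%) of each subunit's TPM by transcript class in pool 1 and pool 2. Coding transcripts make up at least 74.7% of each subunit except Cbx8, where the coding share is 47.6% and 48.7%.

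Reads of antisense and nested genes could enter some of these values, since no source used here gives the strand setting. Of 6 overlapping genes, Gm44282 in Ezh2 and Gm45120 on the same strand in Eed had no entry in the gene tables used here. The other 4 were low: Gm26625 within Ezh2 at 1.02 and 1.73 TPM, E230029C05Rik across the Eed start at 2.03 and 0.96 TPM, Gm26563 within Suz12 at 1.38 and 1.45 TPM, and the snoRNA Gm22213 within Jarid2 at 1.70 and 1.77 TPM.

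Besides the 10 subunits, 8 lists held companion genes, from other subunits of the complexes to enzymes that oppose them. Of the 45 matched companions 44 were detected, against 33.0% of all Ensembl genes. Of the 44, 1 was over 1.5-fold apart, against the same 5.98% of genes. It was Asxl2, a cofactor of the deubiquitinase that removes the PRC1 mark, with 9.69 and 14.12 TPM and a pool ratio of 0.61. Bap1, the deubiquitinase itself, had 69.9 and 54.0 TPM, Asxl1 had 14.3 and 14.4 TPM, and Asxl3 had 5.23 and 6.92 TPM. Companion ratios had a median of 0.00075, with 22 above and 22 below the median gene. In the list of variant PRC1 genes, all 10 were detected, from Bcorl1, a corepressor, at 4.25 and 5.68 TPM to Yaf2, a Ring-binding protein, at 104.2 and 89.6 TPM. The demethylases that remove the PRC2 mark were both present, Kdm6a at 20.7 and 17.6 TPM and Kdm6b at 25.4 and 28.2 TPM. The Trithorax group opposes Polycomb, in part through methylation of lysine 4 of histone H3, and all 9 of its listed genes were detected. They ran from Kmt2b, a methyltransferase, at 8.30 and 8.95 TPM to Dpy30, a shared core subunit, at 155.2 and 138.2 TPM. No gene of these last 3 lists was over 1.5-fold apart, a log2 limit of 0.58. Some Trithorax genes came close to it, all higher in pool 2: Kmt2a at 0.56, Kmt2c and Kmt2d at 0.53, and Ash1l at 0.52. Of the 9 Trithorax genes 5 were above the median gene and 4 below.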

How the data were processed

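Total RNA from 2 pools of E11.5 hindbrain was sequenced. For each library the authors deposited gene and transcript tables, per the file headers with an expected count (an estimate, not always whole), TPM and FPKM. The authors also deposited bounds of a TPM interval, treated as a score because its level is not given, and in the transcript tables the isoform percent. Build mm10 and annotation M4 are stated in a readme beside the tables. The sources used here do not name an aligner, a quantification tool or a strand setting. Expected counts divide shared reads by estimation, so paralog and isoform splits carry error beyond counting, and total RNA can hold incompletely spliced RNA.

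Symbols and 1-based GRCm38 coordinates came from GENCODE vM21, matched on Ensembl identifiers (42462 of 43346). Of the listed genes, Ezhip was not matched and 1 other is not reported here. Levels were compared within a library as log2(TPM + 1), with mean and SD over 2 libraries, and no test between groups was possible with 1 group. Differences between genes within a library were left untested, since an exact two-sided sign-flip test over 2 libraries cannot give p under 0.5. The labels call the samples biological replicates, and values per pool were compared with a pseudocount of 1, a detection minimum of 1 TPM and a 1.5-fold limit. Depth was 45340440 and 41261544 expected counts. Members and lists were chosen with earlier results of these data known. Named were all 10 subunits, their listed paralogs and complex partners, the highest and lowest gene of other lists, detected genes over 1.5-fold apart, and transcripts that led a subunit or had at least 10% in both libraries. Other transcripts of Ezh2, Phc2 and Suz12, marker genes, Trithorax genes near the 1.5-fold limit, neighbours and overlapping genes were added after their values were seen. Motifs were searched on both strands.

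Alternatives were a pseudocount of 0.1, FPKM, other expression limits, TPM rescaled over protein-coding nuclear genes, protein-coding genes or transcripts only, TMM (edgeR 4.0.16) and DESeq2 1.42.0 scaling of rounded expected counts in R 4.3.3, and each library alone. Python 3.11.15 with pandas 2.3.3, NumPy 2.4.6 and Matplotlib 3.10.9 served for the other steps. The ratio step was tested on simulated data.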

Additional observations from a re-analysis of the deposited data

How the results depend on the processing

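All 10 subunits stayed detected under each alternative run, but the share of all genes detected was not recomputed for these runs. Phc2 stayed the 1 subunit over 1.5-fold apart in each. The share of all genes over that limit ranged from 2.73% with a mean TPM of at least 5 to 9.74% with a pseudocount of 0.1. The pool ratio of Phc2 ranged from −1.09 to −0.95 and that of Suz12 from 0.32 to 0.46, and no subunit crossed the 1.5-fold limit in any of 90 recomputed ratios. Cbx8, Jarid2 and Phc1, which lay near the median gene, changed sign within their ranges. The Ezh2 minus Ezh1 difference of 3.39 was 3.53 with a pseudocount of 0.1 and 3.52 with protein-coding transcripts alone, and 3.32 to 3.47 in single libraries. Cbx2 minus Cbx8, 2.31, was 3.15 with protein-coding transcripts alone, where Cbx8-202 is left out, and 2.16 to 2.46 in single libraries. Phc1 minus Phc2 was −1.42 to −0.36 and median PRC2 minus median PRC1 −0.15 to 0.15 in single libraries. The median pool ratio of the subunits, −0.02, was −0.028 with a pseudocount of 0.1 and −0.0054 after rescaling over protein-coding nuclear genes. It was −0.050 with TMM, −0.063 with DESeq2 scaling and −0.0047 with protein-coding transcripts. The cause of these changes was not tested. The same median was −0.13 with no expression filter, −0.00045 with a TPM of at least 5 and −0.0094 with protein-coding genes. These last settings changed only the median that is subtracted, so all 10 subunits moved by the same amount. Without a filter the ratios equalled those before centring, such as −1.09 for Phc2. The median share of the leading transcript, 68.6% ± 1.97 (SD, n = 2), was 85.1% among protein-coding transcripts and 81.6% of expected counts, and 67.2% to 70.0% in single libraries. No paired analysis was possible because both libraries belong to 1 group, so no groups share a replicate number; differences between genes were taken within each library.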
